A study of Mus musculus with 24 samples.

Results

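The Sec23 and Sec24 genes encode the inner coat of COPII vesicles, which carry newly made proteins from the endoplasmic reticulum (ER) towards the Golgi. The 6 genes described here are Sec23a, Sec23b, Sec24a, Sec24b, Sec24c and Sec24d, out of 23991 genes listed for each library. They were chosen by family after the values of Sec24d in GMP had been seen to be lower in the libraries that carry the IRE1_KO label, and the question put to them was whether the other paralogs were higher where Sec24d was low. The GMP comparisons of that label therefore chose the group and are described below without a test for any of the 6 genes. The libraries came from bone marrow of C57BL/6 mice and were made from cells sorted by flow cytometry. GMP are granulocyte-macrophage progenitors, which give rise to neutrophils and monocytes, and LSK are Lin-Sca1+cKit+ cells, a gate that holds stem cells and early multipotent progenitors.

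Each of the 2 populations was measured in 4 genotypes with 3 libraries each, 24 libraries in all. IRE1_KO_ITD mice carried Ern1(fl/fl), VavCre and Flt3-ITD, IRE1_KO mice carried Ern1(fl/fl) and VavCre, ITD mice carried Flt3-ITD, and WT mice were wild type. VavCre drives recombination in blood cells generally, so the label does not mark a change limited to LSK or GMP, and the ITD and WT groups are not labelled as carrying the floxed allele or the Cre. Flt3-ITD is an activating internal tandem duplication of a receptor kinase found in acute myeloid leukaemia. Nothing in the labels says which animals or pools the 3 libraries of a group came from, so p-values measure the spread between these libraries. Values are FPKM, fragments per kilobase of transcript scaled to the total of the library, which can be compared between genes because they are given per length.

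In COPII assembly the small GTPase Sar1 is loaded with GTP by Preb, also called Sec12, and recruits dimers of a Sec23 and a Sec24 protein, on which Sec13 and Sec31 then build the outer cage. Sec23 speeds GTP hydrolysis by Sar1, and Sec24 is the subunit that binds export signals on cargo and cargo receptors. By sequence Sec24a and Sec24b form one pair and Sec24c and Sec24d the other, and the pairs prefer different export signals. Ern1 encodes IRE1, an ER stress sensor that splices the mRNA of Xbp1, and spliced Xbp1 is a transcription factor that drives genes of ER folding and of ER export.

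The promoter sequences are shown because the Xbp1 protein is known to bind elements built around the letters ACGTG. They come from RefSeq on GRCm38.p6, each from 250 bases before to 50 after the annotated start, and all 6 genes had an entry. ACGTG, searched on both strands, was present in the windows of 5 of the 6 genes, Sec23b being the exception, and in 19.6% of 32851 windows of this length. The longer form TGACGTGG, which contains ACGTG, was present in Sec24d from 26 to 19 bases before the start and in Sec23a from 6 to 13 bases counted after it, and in 0.676% of all windows. CCACG, which overlaps both forms on the opposite strand, was found in 32.8% of all windows. The ER stress element, searched by name as CCAAT and CCACG 9 bases apart, was found in none of the 6 windows and in 0.119% of all windows. A match describes letters in a window and is not a site of binding. The whole Sec24d window is printed first, chr3:123267246-123267545 on the plus strand, and then that of its closest paralog Sec24c, chr14:20674071-20674370 on the plus strand, with ACGTG in capitals.
Sec24d promoter: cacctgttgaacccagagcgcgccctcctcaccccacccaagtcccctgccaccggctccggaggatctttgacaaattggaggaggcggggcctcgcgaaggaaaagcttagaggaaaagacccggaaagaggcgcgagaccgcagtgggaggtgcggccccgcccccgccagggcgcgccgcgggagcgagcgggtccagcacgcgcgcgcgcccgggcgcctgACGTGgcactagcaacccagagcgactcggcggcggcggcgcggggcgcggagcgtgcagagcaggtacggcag
Sec24c promoter: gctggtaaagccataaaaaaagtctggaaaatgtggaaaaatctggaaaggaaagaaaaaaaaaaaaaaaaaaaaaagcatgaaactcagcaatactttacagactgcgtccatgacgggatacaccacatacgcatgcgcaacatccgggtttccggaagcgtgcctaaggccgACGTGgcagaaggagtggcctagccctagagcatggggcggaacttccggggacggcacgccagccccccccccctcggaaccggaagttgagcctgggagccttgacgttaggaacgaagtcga

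For comparison, 41 bases around the match are given for the 3 other genes that have one. Their windows are chr12:59011968-59012267 for Sec23a, chr3:130060858-130061157 for Sec24b and chr11:51756785-51757084 for Sec24a, all on the minus strand. The RefSeq start of Sec24a lies 6800 bases from the start of the gene in GENCODE. The Sec23a stretch has the longer form, with tg before the capitals and g after them, as in Sec24d. In Sec24a the capitals CACGT are ACGTG read on the other strand.
Sec23a: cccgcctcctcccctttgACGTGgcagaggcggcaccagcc
Sec24b: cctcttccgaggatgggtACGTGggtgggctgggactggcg
Sec24a: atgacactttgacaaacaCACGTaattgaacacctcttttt

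The targeted gene did not follow its label. Ern1 had 26.6, 28.5 and 33.2 FPKM in IRE1_KO_ITD GMP and 19.3, 24.5 and 17.9 FPKM in IRE1_KO GMP, against 13.9, 11.8 and 16.0 FPKM in ITD GMP and 10.4, 9.20 and 7.58 FPKM in WT GMP. In LSK it averaged 11.8 ± 1.01 FPKM in IRE1_KO_ITD and 7.62 ± 1.04 FPKM in IRE1_KO, against 6.28 ± 2.21 FPKM in ITD and 4.34 ± 0.539 FPKM in WT (SD, n = 3 each). It was higher in every labelled library than in every library of the matching unlabelled group, in both populations. A gene total cannot show whether exons were removed by the Cre, since fragments of the other exons still count, and all directions below refer to libraries labelled IRE1_KO or IRE1_KO_ITD.

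The marker lists of LSK and GMP otherwise followed the populations, but markers of other cells were detected in both. FPKM sums ran between 510361 and 673177, between 10436 and 11471 genes reached 1 FPKM, and depth relative to 1 WT LSK library, read from the smallest values, ran between 0.920 and 1.28. All 8 LSK markers and all 8 GMP markers were detected, the GMP list summing to 18876 to 31659 FPKM in GMP libraries and to 1090 to 3491 FPKM in LSK libraries. The LSK list summed to 678 to 1106 FPKM in LSK libraries and to 166 to 306 FPKM in GMP libraries. Late neutrophil markers were lower with Flt3-ITD, at 108 to 380 FPKM in IRE1_KO_ITD LSK and 460 to 2337 FPKM in ITD LSK, against 4756 to 9654 FPKM in WT LSK. In WT LSK the late neutrophil sum was above that of the LSK markers, which was 865 to 1025 FPKM. In WT GMP the late neutrophil markers summed to 41812 to 61666 FPKM, against 30164 to 31659 FPKM for the GMP markers. Much of the late neutrophil sum was S100a8 and S100a9, with medians of 2459 and 1489 FPKM in WT LSK. It does not give a share of cells. By Xist and genes of the Y chromosome all 6 ITD libraries read as female, while each other group held both sexes. The 3 IRE1_KO LSK libraries alone carry a 1ng tag in their headers, so that tag and the genotype cannot be told apart within LSK.

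Among the 6 genes Sec23b and Sec24c were the abundant members. Sec23b lay between 30.9 and 61.9 FPKM over the 24 libraries and Sec24c between 21.3 and 55.7 FPKM. Sec23b exceeded Sec23a in every library, by a ratio of 3.06 to 7.94 with a median of 5.05. Sec24c was the highest Sec24 gene in all 24 libraries, and Sec24a stayed between 1.30 and 2.60 FPKM. Sec24d was next below Sec24c in 7 libraries, between Sec24b and Sec24a in 11 and last in 6. Its group means spanned a ratio of 22.0, against 1.63 to 2.47 for the 5 others. The plot of FPKM by library shows these levels.

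**Figure D1:**
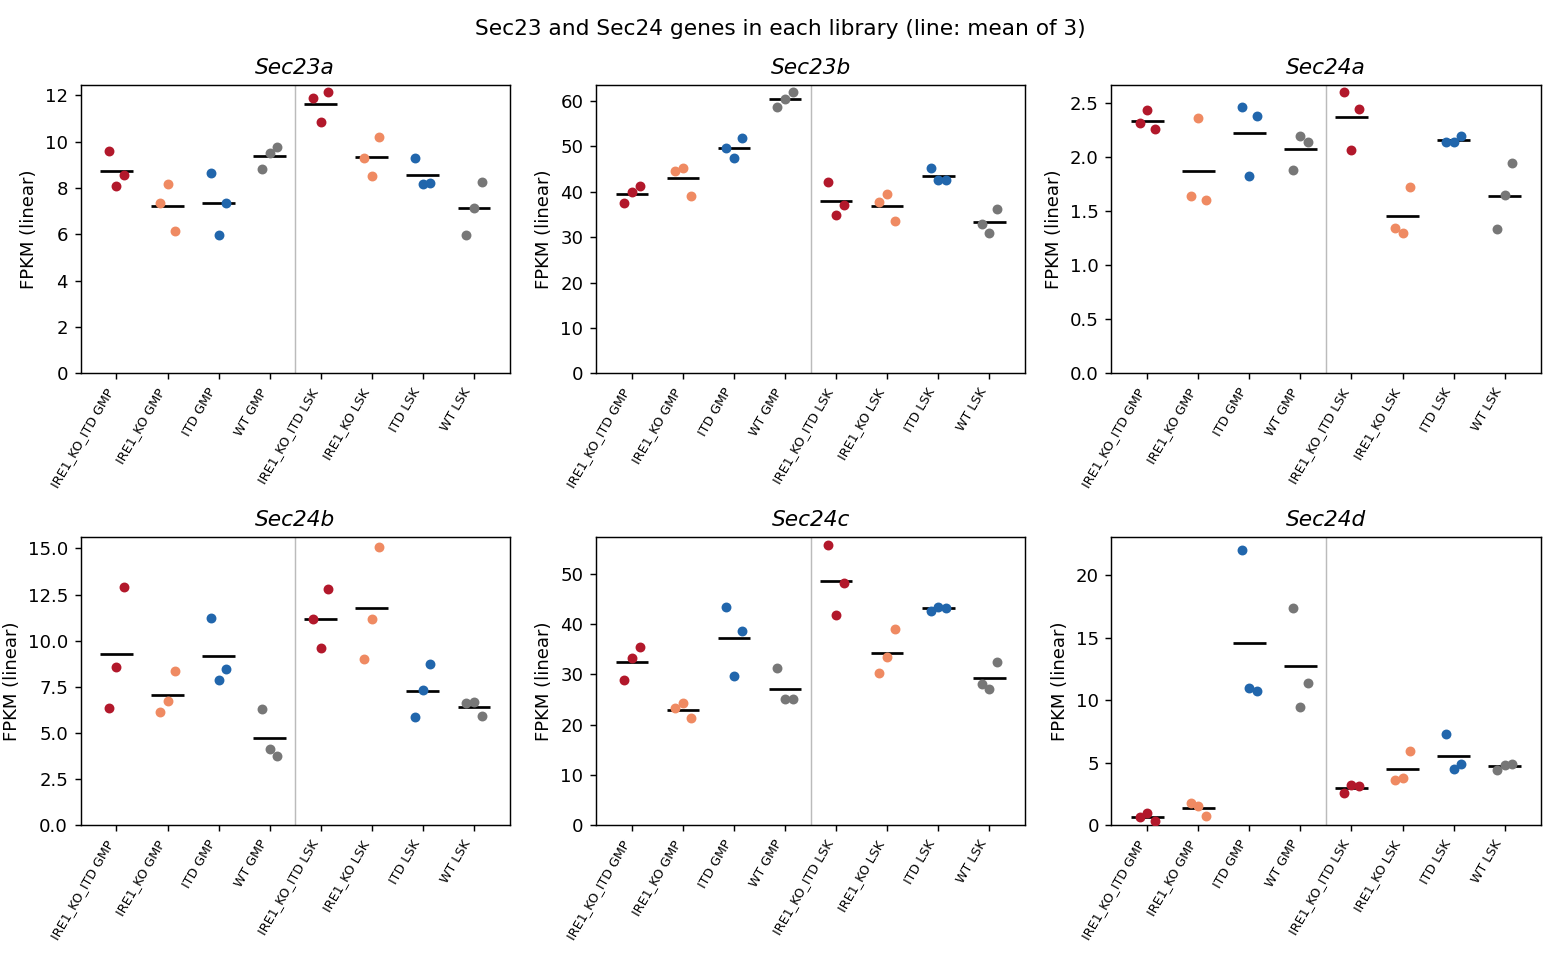
FPKM of each gene (linear axis, separate for each panel) in the 24 libraries, with GMP left of LSK and a black line at each mean of 3. Sec24d lies between 0.338 and 1.76 FPKM in the GMP libraries labelled IRE1_KO_ITD or IRE1_KO and between 9.42 and 22.0 FPKM in ITD and WT GMP, and no other panel has such a gap.

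Sec24d, a cargo-binding subunit, was far lower in GMP that carried the label. It had 0.691, 0.954 and 0.338 FPKM in IRE1_KO_ITD GMP, against 22.0, 11.0 and 10.7 FPKM in ITD GMP. It had 1.76, 1.51 and 0.768 FPKM in IRE1_KO GMP, against 17.4, 9.42 and 11.4 FPKM in WT GMP. Replicate 1 was the highest library of both unlabelled groups, and the ranges did not come near each other. The means stood at 0.0454 of the ITD mean and 0.106 of the WT mean. The differences on the log2(FPKM + 1) scale, which understates changes at low values, were -3.17 ± 0.30 against ITD and -2.53 ± 0.30 against WT (standard errors of the limma fit over the 12 GMP libraries). These values chose the genes and carry no test. In bulk libraries fewer cells with the transcript and less transcript per cell cannot be told apart.

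No other Sec24 gene lay wholly above its unlabelled group in these GMP libraries. Sec24c, the closest paralog of Sec24d, had 28.9, 33.3 and 35.5 FPKM in IRE1_KO_ITD GMP, against 43.4, 29.8 and 38.5 FPKM in ITD GMP. In IRE1_KO GMP it had 23.2, 24.3 and 21.3 FPKM, against 31.3, 25.2 and 25.0 FPKM in WT GMP, so every IRE1_KO library was below every WT library. Sec24b had 6.12, 6.75 and 8.33 FPKM in IRE1_KO GMP, against 6.32, 4.16 and 3.77 FPKM in WT GMP. Its mean was higher with the label, by 0.51 ± 0.24 on the log2 scale, but replicate 1 of WT overlapped the IRE1_KO range. With Flt3-ITD the Sec24b difference was -0.02 ± 0.24, with 6.37, 8.56 and 12.9 FPKM in IRE1_KO_ITD GMP, against 11.2, 7.88 and 8.46 FPKM in ITD GMP. Sec24a differed by 0.06 ± 0.13 between IRE1_KO_ITD and ITD GMP and by -0.11 ± 0.13 between IRE1_KO and WT GMP.

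Both Sec23 genes were also described in the same GMP comparisons. Sec23b, the main Sec23 gene here, had 37.4, 39.9 and 41.2 FPKM in IRE1_KO_ITD GMP, against 49.6, 47.4 and 51.8 FPKM in ITD GMP. It had 44.5, 45.2 and 39.0 FPKM in IRE1_KO GMP, against 58.7, 60.3 and 61.9 FPKM in WT GMP. The labelled libraries were below the unlabelled ones in both comparisons, by -0.32 ± 0.08 and -0.48 ± 0.08 on the log2 scale. Sec23a had 7.35, 8.19 and 6.13 FPKM in IRE1_KO GMP, against 8.83, 9.52 and 9.77 FPKM in WT GMP, without overlap. Between IRE1_KO_ITD and ITD GMP its ranges overlapped, with a log2 difference of 0.24 ± 0.14. In all, 4 of the 6 genes did not overlap between IRE1_KO and WT GMP, each lower with the label, where 25.0% of all 11249 genes did not overlap in either direction. Between IRE1_KO_ITD and ITD GMP 2 of the 6 did not overlap, again lower, where the share over all genes was 19.7%. As these contrasts chose the group, nothing is read from the counts.

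The summed Sec24 level was lower on average in GMP that carried the label. The 4 genes together had 38.2, 45.3 and 51.0 FPKM in IRE1_KO_ITD GMP, against 79.2, 50.5 and 60.1 FPKM in ITD GMP. In IRE1_KO GMP the sum was 32.8, 34.9 and 32.0 FPKM, against 56.9, 40.9 and 42.4 FPKM in WT GMP. Every IRE1_KO library was below every WT library, whereas 1 IRE1_KO_ITD library exceeded the lowest ITD library. Without Sec24d the other 3 genes summed to 44.2 ± 6.55 FPKM in IRE1_KO_ITD GMP, against 48.7 ± 8.86 FPKM in ITD GMP. They summed to 31.9 ± 1.35 FPKM in IRE1_KO GMP, against 34.0 ± 4.77 FPKM in WT GMP (SD, n = 3 each), and overlapped in both comparisons. Sec24d supplied 1.53 ± 0.763% of the Sec24 sum in IRE1_KO_ITD GMP and 4.03 ± 1.50% in IRE1_KO GMP, against 22.5 ± 5.01% in ITD GMP and 26.8 ± 3.77% in WT GMP. Sums and shares were given no test.

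**Figure D2:**
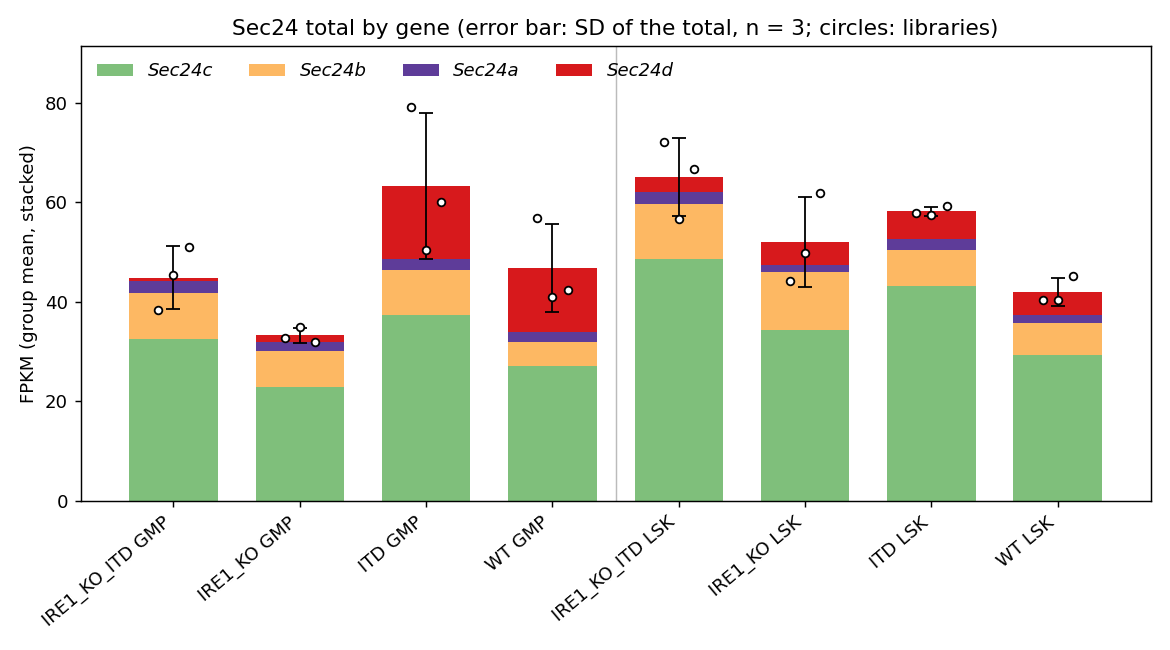
Mean FPKM of the 4 Sec24 genes stacked by group (linear axis from 0), with circles for the sum in each library and bars for the SD of the sum (n = 3). The red Sec24d block is 14.6 and 12.7 FPKM in ITD and WT GMP and 0.661 and 1.35 FPKM in IRE1_KO_ITD and IRE1_KO GMP, while the sum of the 3 other genes overlaps in both comparisons.

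Markers of other cells in GMP are given beside these values. The sum of 8 late neutrophil markers was 1415 to 14750 FPKM in IRE1_KO_ITD GMP, against 2335 to 92939 FPKM in ITD GMP. It was 17257 to 82997 FPKM in IRE1_KO GMP, against 41812 to 61666 FPKM in WT GMP. The ranges of this sum overlapped in both comparisons. The 8 GMP markers themselves summed to 19050 to 22102 FPKM in IRE1_KO_ITD and 25582 to 29478 FPKM in IRE1_KO, against 18876 to 22582 FPKM in ITD and 30164 to 31659 FPKM in WT. For this sum every IRE1_KO library was below every WT library, but its members did not all move with it. Kit was higher, at 38.6 to 44.7 FPKM in IRE1_KO GMP, against 32.0 to 36.8 FPKM in WT GMP, and Mpo, Ms4a3 and Csf1r overlapped. The monocyte and macrophage, basophil and mast, megakaryocyte and erythroid sums overlapped in both comparisons. The 7 plasma cell markers found summed to 135 to 152 FPKM in IRE1_KO GMP, against 116 to 124 FPKM in WT GMP, most of it Xbp1, which is one of them. The part of these markers in the Sec24d and Sec23b values was not tested.

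LSK libraries allow tests of the label, since their values did not choose the genes. Sec24d was much less separated there. It had 2.55, 3.20 and 3.17 FPKM in IRE1_KO_ITD LSK, against 7.27, 4.49 and 4.92 FPKM in ITD LSK, and fell by 0.70 ± 0.19 on the log2 scale (adjusted p = 0.0237, limma with Benjamini-Hochberg adjustment over 11955 genes). All 3 labelled libraries were below all 3 ITD libraries. Without replicate 1 or 3 of IRE1_KO_ITD, or without replicate 1 of ITD, the adjusted p was 0.0812, 0.0590 and 0.0625, and with sex as a covariate it was 0.0843. Between IRE1_KO and WT LSK, with 3.66, 3.79 and 5.98 FPKM against 4.45, 4.84 and 4.92 FPKM, the ranges overlapped and the log2 difference was -0.09, with a 95% confidence interval of -0.50 to 0.32. The change of the label effect between the 2 Flt3 backgrounds was -0.61 with an adjusted p of 0.178, so the effects were not shown to differ.

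Sec24b, of the other Sec24 pair, rose in LSK that carried the label. It had 9.02, 11.2 and 15.1 FPKM in IRE1_KO LSK, against 6.63, 6.69 and 5.89 FPKM in WT LSK, and rose by 0.76 ± 0.18 (adjusted p = 0.0109, limma). It had 11.2, 9.62 and 12.8 FPKM in IRE1_KO_ITD LSK, against 5.87, 7.30 and 8.72 FPKM in ITD LSK, where the difference of 0.56 ± 0.18 missed the threshold (adjusted p = 0.0508, limma). In both comparisons every labelled library was above every unlabelled one. Averaged over both Flt3 backgrounds, the difference was 0.66 ± 0.13 (adjusted p = 0.00263, limma), and it passed in each of 12 fits that left out 1 library and in the 6 other alternatives. The IRE1_KO and WT comparison alone did not pass with quantile normalization (log2 difference 0.46, adjusted p = 0.0874) or with size factors (0.58, adjusted p = 0.0515). In that comparison these scalings lowered the median over all genes by 0.22 and 0.17, and the calls over all genes went 2506 up and 325 down as deposited, 1414 up and 1138 down with quantile normalization, and 1531 up and 854 down with size factors. In a fit without the 3 libraries tagged 1ng, the IRE1_KO_ITD and ITD difference of Sec24b was 0.56 with an adjusted p of 0.0310.

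Sec23a, the minor Sec23 gene, was likewise higher in labelled LSK. It had 11.9, 10.8 and 12.1 FPKM in IRE1_KO_ITD LSK, against 9.30, 8.17 and 8.23 FPKM in ITD LSK, and rose by 0.40 ± 0.12 (adjusted p = 0.0363, limma). It had 9.27, 8.51 and 10.2 FPKM in IRE1_KO LSK, against 5.99, 7.15 and 8.26 FPKM in WT LSK, with a difference of 0.35 ± 0.12 (adjusted p = 0.0540, limma). The groups did not overlap in either comparison. Averaged over Flt3 the rise was 0.38 ± 0.08 (adjusted p = 0.00592, limma), but only 0.13 with an adjusted p of 0.230 after quantile normalization. The IRE1_KO_ITD and ITD call was lost in 5 of 6 fits that left out 1 library, every fit except that without ITD replicate 1, with adjusted p up to 0.114. It was also lost in 4 of 8 other alternatives. These were no filter, quantile normalization, size factors and sex as a covariate, with adjusted p of 0.0594, 0.224, 0.052 and 0.123 (limma). Sec23b, Sec24a and Sec24c showed no call with the label in LSK, with averaged differences of -0.03, -0.01 and 0.19 and 95% confidence intervals of -0.18 to 0.12, -0.20 to 0.18 and -0.0012 to 0.38.

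Counted over the 6 genes, the label called 1 between IRE1_KO and WT LSK, where 23.7% of all genes were called. It called 2 between IRE1_KO_ITD and ITD LSK, where 20.2% were called. Averaged over Flt3 it called 3, Sec23a and Sec24b up and Sec24d down, where 31.1% were called. The averaged fall of Sec24d, -0.40 ± 0.13 with an adjusted p of 0.0413, was lost in 10 of 12 fits that left out 1 library, all but those without IRE1_KO replicate 3 or ITD replicate 2, with adjusted p up to 0.0931. The change of the label effect with Flt3 called none of the 6, where 6.94% of all genes were called. With 1 to 3 calls among 6 genes these counts are near the background.

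Markers of other cells also moved with the label in LSK that carried Flt3-ITD. The 7 monocyte and macrophage markers found summed to 25.7 to 39.96 FPKM in IRE1_KO_ITD LSK, against 77.1 to 172 FPKM in ITD LSK, and late neutrophil markers were lower as given above. The 6 megakaryocyte markers summed to 47.7 to 55.6 FPKM in IRE1_KO_ITD LSK, against 32.8 to 39.97 FPKM in ITD LSK, and the 7 basophil and mast markers to 80.7 to 96.2 FPKM, against 70.3 to 76.0 FPKM. The plasma cell sum, again mostly Xbp1, was 135 to 172 FPKM in IRE1_KO_ITD LSK, against 47.1 to 66.4 FPKM in ITD LSK. Each of these sums was without overlap, whereas between IRE1_KO and WT LSK all of them overlapped. Members of a list did not all move with its sum. Of the basophil and mast list, Gata2 had a median of 28.1 FPKM in IRE1_KO_ITD LSK, against 14.8 FPKM in ITD LSK, but Mcpt8 had 37.4 against 44.7 FPKM. Of the megakaryocyte list, Itga2b had a median of 18.7 against 8.13 FPKM, but Pf4 had 8.13 against 14.5 FPKM. The part of these markers in the Sec24d, Sec24b and Sec23a values was not tested.

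**Figure D3:**
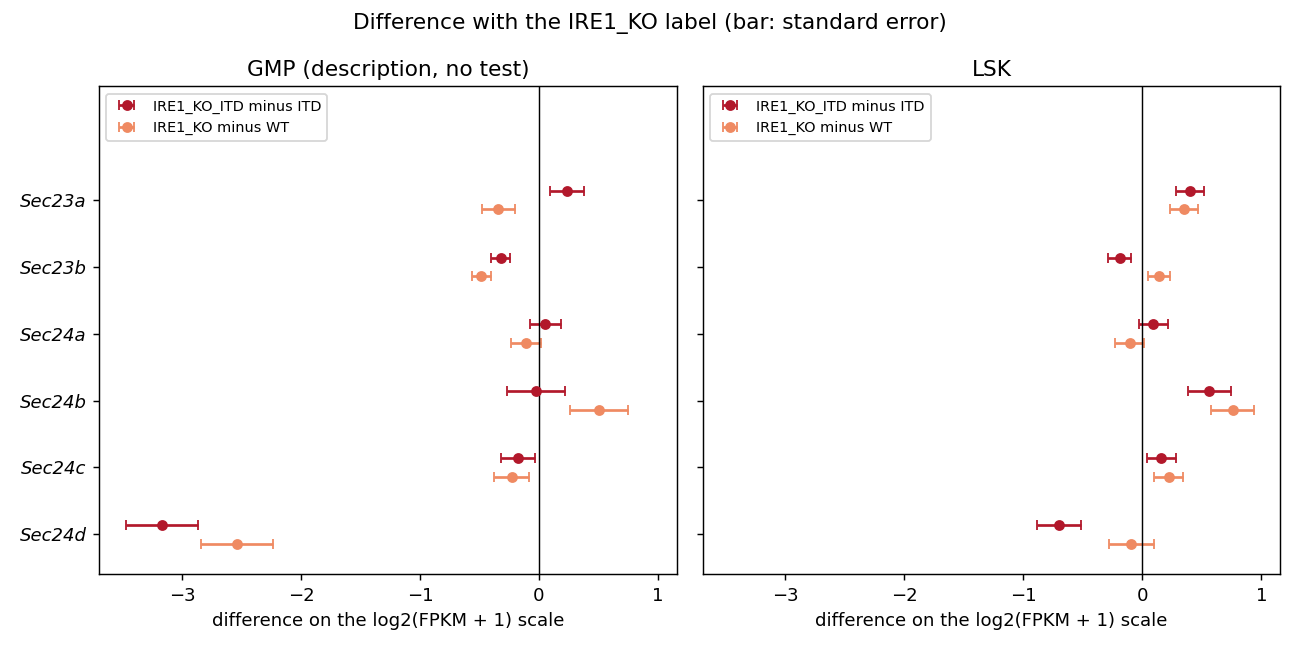
Difference on the log2(FPKM + 1) scale with the IRE1_KO label for each gene, GMP on the left and LSK on the right, dark points for IRE1_KO_ITD minus ITD and light points for IRE1_KO minus WT, with standard errors. Sec24d lies at -3.17 and -2.53 in GMP and at -0.70 and -0.09 in LSK, and Sec24b and Sec23a lie above 0 in both LSK comparisons.

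The Sec24 sum of LSK was not lower with the label. It was 72.0, 56.6 and 66.6 FPKM in IRE1_KO_ITD LSK, against 57.9, 57.4 and 59.1 FPKM in ITD LSK, and 44.2, 49.8 and 61.9 FPKM in IRE1_KO LSK, against 40.4, 40.4 and 45.2 FPKM in WT LSK. The ranges overlapped in both comparisons. The share of Sec24d was 4.66 ± 1.06% in IRE1_KO_ITD LSK, against 9.56 ± 2.61% in ITD LSK, and 8.52 ± 1.05% in IRE1_KO LSK, against 11.3 ± 0.614% in WT LSK (SD, n = 3 each). Together the 2 Sec23 genes had 49.7 ± 4.16 FPKM in IRE1_KO_ITD LSK, against 52.1 ± 2.18 FPKM in ITD LSK, and 46.2 ± 2.22 FPKM in IRE1_KO LSK, against 40.5 ± 3.50 FPKM in WT LSK.

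Flt3-ITD was accompanied by more Sec24c, the abundant cargo-binding subunit, in LSK. Sec24c had 42.6, 43.5 and 43.3 FPKM in ITD LSK, against 28.0, 27.2 and 32.5 FPKM in WT LSK, and rose by 0.55 ± 0.12 (adjusted p = 0.0105, limma). It had 55.7, 41.7 and 48.2 FPKM in IRE1_KO_ITD LSK, against 30.2, 33.5 and 39.1 FPKM in IRE1_KO LSK, and rose by 0.49 ± 0.12 (adjusted p = 0.0113, limma). No library with Flt3-ITD overlapped its group without it, and both calls held in every alternative, with adjusted p up to 0.0498 and 0.0479. In these comparisons late neutrophil markers were lower with Flt3-ITD, as given above, and the 8 erythroid markers summed to 231 to 703 FPKM in ITD LSK, against 816 to 1915 FPKM in WT LSK. The 8 LSK markers summed to 678 to 777 FPKM in ITD, against 865 to 1025 FPKM in WT LSK. They summed to 686 to 749 FPKM in IRE1_KO_ITD, against 992 to 1106 FPKM in IRE1_KO LSK, although Mecom among them was higher. Monocyte and macrophage markers summed to 77.1 to 172 FPKM in ITD, against 38.1 to 70.9 FPKM in WT LSK. They summed to 25.7 to 39.96 FPKM in IRE1_KO_ITD, against 49.6 to 71.4 FPKM in IRE1_KO LSK. The part of these markers in Sec24c, and in Sec23b and Sec24a below, was not tested.

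Sec23b rose in ITD LSK, to 45.3, 42.6 and 42.5 FPKM, against 33.0, 30.9 and 36.3 FPKM in WT LSK, by 0.37 ± 0.10 (adjusted p = 0.0200, limma). Its adjusted p was 0.0510 and 0.0511 without replicate 2 or 3 of ITD, 0.0502 and 0.0846 without replicate 1 or 2 of WT, 0.0529 with sex as a covariate and 0.0901 after quantile normalization. Between IRE1_KO_ITD and IRE1_KO LSK Sec23b overlapped, with a difference of 0.04 and a 95% confidence interval of -0.17 to 0.25. Sec24a, the least abundant gene of the family in most libraries, had 2.60, 2.07 and 2.45 FPKM in IRE1_KO_ITD LSK, against 1.34, 1.30 and 1.73 FPKM in IRE1_KO LSK, and rose by 0.46 ± 0.12 (adjusted p = 0.0162, limma). Without replicate 1 or 3 of IRE1_KO_ITD its adjusted p was 0.0613 and 0.0512, and without replicate 1 or 2 of IRE1_KO it was 0.0501 and 0.0572. Flt3-ITD called 2 of the 6 genes between ITD and WT LSK, where 22.2% of all genes were called, and 2 between IRE1_KO_ITD and IRE1_KO LSK, where 31.3% were called. The first comparison shares its WT libraries with that of IRE1_KO and WT.

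In GMP no gene of the family passed for Flt3-ITD. Between ITD and WT GMP 0 of 6 were called, where 10.7% of all genes were called (1203 genes by limma, 3339 at an unadjusted p under 0.05). Sec24b came closest, with a difference of 0.84 ± 0.24 (adjusted p = 0.0515, limma) and every ITD library, 11.2, 7.88 and 8.46 FPKM, above every WT library, 6.32, 4.16 and 3.77 FPKM. Sec23b lay the other way, at -0.28 ± 0.08 (adjusted p = 0.0518, limma), and Sec24c at 0.43 ± 0.14 (adjusted p = 0.0785, limma). With size factors Sec24b, Sec23b and Sec23a were called, at 0.78, -0.35 and -0.40 with adjusted p of 0.0405, 0.0133 and 0.0485. Without replicate 1 of WT the Sec24b difference was 1.02 with an adjusted p of 0.0360, and without replicate 2 of ITD that of Sec24c was 0.58 with an adjusted p of 0.0222. Between IRE1_KO_ITD and IRE1_KO GMP 0 of 6 were called, where 13% of all genes were called (1459 by limma, 3215 at an unadjusted p under 0.05). Sec24c was again closest, at 0.48 ± 0.14 (adjusted p = 0.0520, limma), with all IRE1_KO_ITD libraries above all IRE1_KO libraries. The change of the label effect with Flt3 in GMP called 0.0% of all genes, with 1468 genes at an unadjusted p under 0.05 by limma. It is built from the comparisons that chose the 6 genes and is not read for them.

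**Figure D4:**
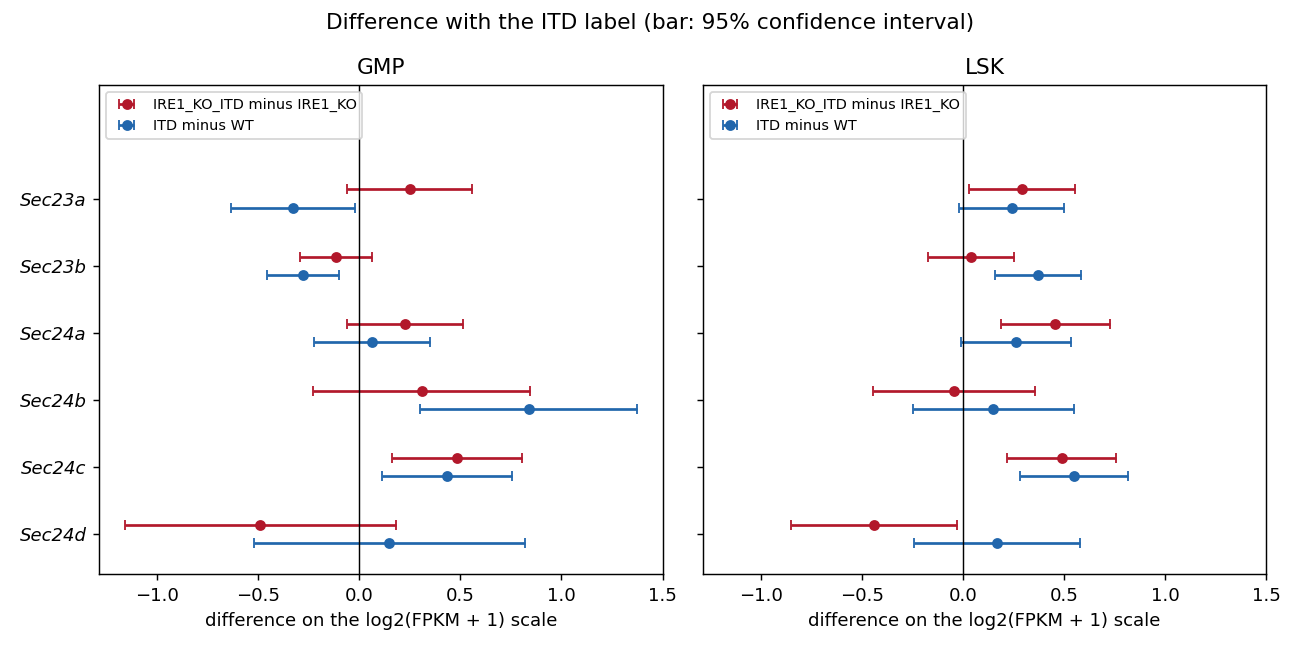
Difference on the log2(FPKM + 1) scale with Flt3-ITD for each gene, GMP on the left and LSK on the right, dark points for IRE1_KO_ITD minus IRE1_KO and blue points for ITD minus WT, with 95% confidence intervals. Sec24c lies between 0.43 and 0.55 in all 4 comparisons, and Sec23b lies at -0.28 in GMP and 0.37 in LSK for ITD minus WT.

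The Flt3-ITD difference of Sec23b changed sign between the populations. It averaged 49.6 ± 2.21 FPKM in ITD GMP, against 60.3 ± 1.62 FPKM in WT GMP, and 43.5 ± 1.55 FPKM in ITD LSK, against 33.4 ± 2.69 FPKM in WT LSK (SD, n = 3 each). The change in effect, GMP minus LSK, was -0.65 ± 0.12 (adjusted p = 0.00279, limma over 12348 genes), and it passed in all 12 fits that left out 1 library and in the 7 other alternatives. Sec23a moved the same way, by -0.57 ± 0.18 (adjusted p = 0.0408, limma). That call was lost in 9 of the 12 fits that left out 1 library, all but those without WT LSK replicate 3, ITD GMP replicate 1 or WT GMP replicate 1, with adjusted p up to 0.0953. The test called 2 of 6 genes, where 13.6% of all genes were called. The ITD groups read as all female and the WT groups held 1 female and 2 male libraries in each population, and the part of sex was not tested in this difference beyond the covariate fit, which kept the Sec23b call. Marker sums moved with Flt3-ITD in GMP as well. The sum of the 8 GMP markers was lower in ITD than in WT GMP, as given above, but Kit and Mpo overlapped. Csf1r, also of that list, was higher, at 52.2 to 81.7 FPKM in ITD GMP, against 46.3 to 46.5 FPKM in WT GMP. The basophil and mast markers summed to 137 to 228 FPKM in ITD GMP, against 394 to 581 FPKM in WT GMP. The megakaryocyte markers summed to 6.08 to 20.1 FPKM in ITD GMP, against 39.8 to 77.5 FPKM in WT GMP, and the monocyte and macrophage markers to 503 to 657 FPKM, against 337 to 406 FPKM. Their part in the Sec23b and Sec23a values was not tested.

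Between the populations Sec24d and Sec23b were higher in WT GMP than in WT LSK. In WT mice Sec24d had 17.4, 9.42 and 11.4 FPKM in GMP, against 4.45, 4.84 and 4.92 FPKM in LSK, a difference of 1.22 ± 0.26 on the log2 scale. In ITD mice it had 22.0, 11.0 and 10.7 FPKM in GMP, against 7.27, 4.49 and 4.92 FPKM in LSK, a difference of 1.20 ± 0.26. GMP exceeded LSK without overlap in both genotypes. These GMP libraries are the unlabelled side of the comparisons that chose Sec24d, so its level in them is described without a test. In mice that carried the label the order was the opposite, 0.661 ± 0.310 FPKM in IRE1_KO_ITD GMP, against 2.98 ± 0.368 FPKM in IRE1_KO_ITD LSK, and 1.35 ± 0.516 FPKM in IRE1_KO GMP, against 4.47 ± 1.31 FPKM in IRE1_KO LSK (SD, n = 3 each), without overlap and without a test.

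Sec23b had 58.7, 60.3 and 61.9 FPKM in WT GMP, against 33.0, 30.9 and 36.3 FPKM in WT LSK, a rise of 0.84 ± 0.08 (adjusted p = 1.41e-07, limma) that held in all alternatives. In ITD mice its difference was 0.19 ± 0.08 (adjusted p = 0.0823, limma). Sec23a rose in WT GMP by 0.36 ± 0.13 (adjusted p = 0.0232, limma), with 8.83, 9.52 and 9.77 FPKM in GMP, against 5.99, 7.15 and 8.26 FPKM in LSK. Its adjusted p was 0.128 without WT LSK replicate 1, and 0.0594 and 0.0714 without WT GMP replicate 2 or 3. Sec24b and Sec24c were not called in either genotype. Sec24a differed by 0.22 between WT GMP and LSK without a call, but was called with quantile normalization (0.63, adjusted p = 0.000219, limma) and with size factors (0.27, adjusted p = 0.0481, limma). Sec23b was called in ITD mice under the same scalings, at 0.27 and 0.33 with adjusted p of 0.0100 and 0.00122. Of the 5 genes other than Sec24d, 2 were called in WT mice, where 50.3% of all genes were called. In ITD mice limma called 0 of the 5, where 40.5% of all genes were called (5001 genes, 6128 at an unadjusted p under 0.05). The summed Sec23 level was 69.7 ± 2.09 FPKM in WT GMP, against 40.5 ± 3.50 FPKM in WT LSK, while the Sec24 sums, 46.7 ± 8.81 FPKM and 42.0 ± 2.79 FPKM (SD, n = 3 each), overlapped.

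The other COPII genes were listed as 16 symbols, of which 14 were tested in LSK and 15 in GMP. In GMP with the label their median difference was small, -0.07 between IRE1_KO_ITD and ITD and -0.09 between IRE1_KO and WT, against 0.07 and 0.08 over all genes tested. Between IRE1_KO and WT GMP Sar1b, Sec13 and Pdcd6 were lower and Sec31b higher without overlap. Between IRE1_KO_ITD and ITD GMP Sar1a and Pef1 were higher and Preb and Sec16b lower without overlap. Over all genes 25.0% and 19.7% did not overlap in either direction in these comparisons. They are the contrasts that chose the group, so nothing is read from the genes named. No gene of the list came near Sec24d in size, the largest difference being 0.45 ± 0.28 for Ctage5 in the IRE1_KO comparison.

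In LSK the label called 2 of 14, both up, between IRE1_KO and WT, where 23.7% of all genes were called, so the share of the list was not above the background. They were Ctage5, a receptor that helps to export large cargo, by 1.78 ± 0.15 (adjusted p = 1.76e-05, limma), and the outer coat gene Sec31a, by 0.38 ± 0.10 (adjusted p = 0.0212, limma). Ctage5 averaged 26.6 FPKM in IRE1_KO LSK, against 7.07 FPKM in WT LSK, and its locus overlaps that of Mia2, so reads may have been divided between them. Between IRE1_KO_ITD and ITD LSK Ctage5 rose by 0.70 and Klhl12, the adaptor of a ligase that modifies Sec31, by 0.53, while the GTPase Sar1b fell by 0.30 (adjusted p = 0.0104, 0.0444 and 0.0225, limma). Averaged over Flt3 Ctage5, Klhl12 and Sec31a were called, all up. The label effect differed between the Flt3 backgrounds for Ctage5, by -1.07 ± 0.22 (adjusted p = 0.0178, limma). It also differed for Sar1b, by -0.46 ± 0.11 (adjusted p = 0.0350, limma). Of all genes 6.94% were called in that comparison, 667 of 830 downward, with a median of -0.14 over all genes tested. Quantile normalization brought this median to 0.02 and the calls to 227 up and 358 down. The comparison includes the IRE1_KO LSK libraries tagged 1ng.

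Flt3-ITD called 7 of the 14 between ITD and WT LSK, 6 up and 1 down, where 22.2% of all genes were called, with a median of 0.24 against 0.08 over all genes tested. The scaffold of ER exit sites Sec16a rose by 0.55 ± 0.13, the GTPase Sar1a by 0.29 ± 0.07 and Sec31a by 0.38 ± 0.10, and the Klhl12 cofactor Pef1 fell by 0.35 ± 0.09 (adjusted p = 0.0146, 0.0157, 0.0245 and 0.0239, limma). Between IRE1_KO_ITD and IRE1_KO LSK Sec16a rose by 0.84 ± 0.13 (adjusted p = 0.000828, limma), whereas Ctage5 and Sar1b fell. In GMP Sec31b was called between ITD and WT, at 0.95 ± 0.19 (adjusted p = 0.0143, limma), and Sec16a and Sar1a between IRE1_KO_ITD and IRE1_KO, at 0.61 and 0.30 (adjusted p = 0.0344 and 0.0412, limma). Between WT GMP and LSK 5 rose and 1 fell of 15, where 50.3% of all genes were called, led by the outer coat gene Sec13 at 0.80 ± 0.10 (adjusted p = 1.69e-06, limma), with Sar1b, Sec23ip, Ctage5 and Mia3 also up and Pef1 down. Between ITD GMP and LSK Ctage5 and Sec31b rose and Sar1a, Klhl12 and Pef1 fell. The Flt3-ITD difference of Sec13 changed between the populations as that of Sec23b did, by -0.56 ± 0.14 (adjusted p = 0.0144, limma).

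Proteins that ride in COPII vesicles and the COPI coat, which returns vesicles from the Golgi, were listed for context. Of 26 tested cargo receptors and SNAREs, 15 were lower and 0 higher without overlap between IRE1_KO and WT GMP, with a median of -0.32, and 8 lower and 0 higher between IRE1_KO_ITD and ITD GMP, with a median of -0.21. Of 10 COPI genes 5 and 2 were lower in these comparisons and 0 higher. Over all genes 25.0% and 19.7% did not overlap in either direction. The counts come from the contrasts that chose Sec24d and are given as a description. Between IRE1_KO and WT LSK, limma called 5 COPI genes up and 0 down, and 4 of 26 receptors and SNAREs up and 1 down. Over all genes 21.0% were called up there and 2.72% down. Between IRE1_KO_ITD and ITD LSK it called 0 up in both lists, with 1 COPI gene and 2 receptors or SNAREs down. Over all genes 13.3% were called up there and 6.96% down. Between WT GMP and LSK 14 cargo receptors and SNAREs rose and 3 fell, and 8 of 10 COPI genes rose and 2 fell, where 19.0% of all genes rose and 31.3% fell. The receptors Tmed3, Surf4 and Lman1 led the rise at 2.05, 1.26 and 1.21 (adjusted p = 8.43e-11, 5.34e-10 and 1.31e-08, limma). The Flt3-ITD difference was lower in GMP than in LSK for 8 of these receptors and SNAREs and for 6 COPI genes, and higher for 1 COPI gene, Copz2, where 13.6% of all genes were called.

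Among 11 sensors and transcription factors of ER stress, 8 were tested in LSK and 9 in GMP. Xbp1 was higher with the label in LSK, at 147 ± 19.9 FPKM in IRE1_KO_ITD, against 52.9 ± 10.7 FPKM in ITD, and at 48.5 ± 3.13 FPKM in IRE1_KO, against 27.5 ± 8.07 FPKM in WT (SD, n = 3 each). In GMP it had 162 ± 32.1 FPKM in IRE1_KO_ITD, against 103 ± 21.3 FPKM in ITD, and 130 ± 17.0 FPKM in IRE1_KO, against 101 ± 8.48 FPKM in WT. These are totals of the gene and do not separate the spliced form. Atf6, another ER stress sensor, and the related factors Creb3 and Creb3l2 were lower without overlap in IRE1_KO than in WT GMP, and Atf6b and Creb3l2 were lower in IRE1_KO_ITD than in ITD GMP. The shares over all genes were 25.0% and 19.7% in either direction, and these GMP values are a description.

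Across libraries the paralogs did not share 1 pattern. Over the 24 libraries Pearson's r of log2(FPKM + 1) with Sec24d was 0.53 for Sec23b, 0.17 for Sec24c, 0.00 for Sec24a and -0.23 for Sec24b. Over the 12 GMP libraries it was 0.84 for Sec23b and 0.36 for Sec24c, and -0.84 for Ern1. The GMP gap in Sec24d that chose the genes is part of these values. Over the 12 LSK libraries r with Sec24d was 0.04 for Sec23b, -0.18 for Sec24a, -0.29 for Sec24c, -0.43 for Sec24b and -0.44 for Sec23a. The points share libraries, depth and genotype, and these are descriptions. The genes most like Sec24d over 24 libraries, of 8271 with a mean of at least 5 FPKM, were Armcx3, Edem2, Tmem39a, Yipf5 and Gmppa, with r between 0.81 and 0.87. Over the 12 GMP libraries they were P4hb, which encodes a disulphide isomerase of the ER, Slc39a7, Tmed10, Tmem39a and Fkbp2, with r between 0.94 and 0.96. The genes most like Sec23b were Spcs3 of the signal peptidase and Rpn1 and Stt3a of the oligosaccharyltransferase, with r of 0.94 each. Those of Sec24c were Ergic1, Foxred2 and Prrc1, those of Sec24b Plcb3, Pygo2 and Prex1, those of Sec23a Cog6, Pja2 and Acad11, and those of Sec24a Smg5, Aifm2 and Mbnl1. Once group means were removed, the strongest relation among the 6 was between Sec23a and Sec24a, with r of 0.81 over 24 libraries. Between Sec23b and Sec24d r was then -0.08.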

How the data were processed

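RNA was sequenced from 24 libraries, 3 for each of 4 genotypes in GMP and LSK. The authors deposited FPKM values per gene for each library. Per the submitters' processing notes, STAR and Cufflinks were used with mm10. No version of either tool is given in the sources used here. Per the labels' protocols, libraries were made with a SMART-Seq v4 and Nextera XT kit, while the series text names a stranded TruSeq kit, so strand was not assumed.

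The 6 genes and all gene lists were chosen with earlier results of these data known. A gene was tested if 3 or more libraries of the fit reached 1 FPKM, on log2(FPKM + 1), with limma 3.58.1 in R 4.3.3 (moderated test with trend, Benjamini-Hochberg adjustment over all genes tested, threshold 0.05). LSK and GMP were fitted apart, 12 libraries each, and comparisons of populations over all 24. Scripts were tested on simulated data. Groups and replicate numbers come from the sample titles. Whole reads could not be recovered, so FPKM carry no interval of counting error. The named genes were the 6 genes, Ern1, Xbp1, other COPII genes that were called (the 4 with the smallest p where more than 6 were) and the genes of highest correlation with each of the 6. Genes of the other lists were named as examples. Between ITD GMP and LSK same-numbered libraries deviated together, with correlations of 0.198, 0.105 and 0.147. An alternative fit took the replicate number as a block. That block was shared by all groups of the fit, so it did not pair these libraries alone. Same-numbered IRE1_KO_ITD libraries differed in sex between LSK and GMP for replicates 2 and 3, so there the number does not mark an animal. Alternatives were quantile normalization, size factors, a replicate block, a pseudocount of 0.1, testing without the filter, sex as a covariate, only the groups compared, no IRE1_KO LSK libraries, and each library left out. Replicates of a group correlated at 0.941 to 0.966. One marker list is not reported here.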

Additional observations from a re-analysis of the deposited data

Results flagged for a closer look

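Sec23b drew attention because its Flt3-ITD difference ran in opposite directions in the populations. Every ITD GMP library was below every WT GMP library, by -10.7 FPKM in the mean, and every ITD LSK library was above every WT LSK library, by 10.1 FPKM in the mean. The test of the difference, GMP minus LSK, gave -0.65 on the log2 scale (adjusted p = 0.00279, limma).

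Sec23a differed in the same test by -0.57 (adjusted p = 0.0408, limma), a call that most fits leaving out 1 library did not keep. With the IRE1_KO label, without Flt3-ITD, every IRE1_KO GMP library was below every WT GMP library, by -2.15 FPKM in the mean, and every IRE1_KO LSK library was above every WT LSK library, by 2.19 FPKM in the mean. This second difference was not tested, since the GMP side chose the genes, and the IRE1_KO LSK libraries are those tagged 1ng.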

How the results depend on the processing

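The Sec24d difference in GMP kept its direction in all alternatives. With a pseudocount of 0.1 it was -4.28 between IRE1_KO_ITD and ITD and -3.17 between IRE1_KO and WT. With 1 library left out it ranged between -3.34 and -2.85 and between -2.71 and -2.30. The number of the 6 genes called, without 1 library in turn, was 1 to 2 between IRE1_KO and WT LSK, 0 to 2 between IRE1_KO_ITD and ITD LSK, 1 to 2 for both Flt3-ITD comparisons in LSK, 0 to 1 between ITD and WT GMP, and 1 to 2 for the change of the Flt3-ITD effect. Between IRE1_KO and WT LSK it was 2 with a pseudocount of 0.1, and 0 with quantile normalization or size factors. Between IRE1_KO_ITD and ITD LSK it was 0 without the filter, and 1 with quantile normalization, size factors or sex as a covariate. Between ITD and WT LSK it was 1 with quantile normalization or sex. Between ITD and WT GMP it was 1 with the pseudocount, 2 with quantile normalization and 3 with size factors. Between IRE1_KO_ITD and IRE1_KO GMP it was 1 with quantile normalization, size factors or only the groups compared. Between ITD GMP and LSK, with Sec24d left out, Sec23b alone was called with quantile normalization or size factors, and no gene with the replicate block, as without it. The change of the Flt3-ITD effect called 1 without the filter or with only the groups compared. The causes were not tested.

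Outside the ITD populations same-numbered libraries correlated at -0.372 to 0.135. Between WT GMP and LSK the values were 0.135, 0.0502 and 0.0505, and whether those libraries were paired was not tested. In the LSK label comparisons the replicate block brought Sec24b between IRE1_KO_ITD and ITD to an adjusted p of 0.0385, and the averaged Sec24d to 0.0565 (limma). Of 1203 values of single genes under alternatives, 1125 kept their side of the threshold (untested ones, within the spread between replicates), 55 lost a call, 22 gained one and 1 moved. Of these, 43 of 1073 tested values changed sign with no call in either setting; among them, Sec23b and Sec24c between IRE1_KO and WT LSK were negative with quantile normalization. Sec24d lies under 1 FPKM in all 3 IRE1_KO_ITD GMP libraries, which limits the precision of its ratio.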
